A study of Mus musculus with 6 samples.

Results

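Phospholipase C-γ2 (PLCG2) cleaves the membrane lipid PIP2 into a soluble product, inositol trisphosphate (IP3), and a membrane-bound one, diacylglycerol (DAG). IP3 opens IP3 receptors on the endoplasmic reticulum, and the released calcium activates calcineurin, the phosphatase that lets NFAT transcription factors enter the nucleus. DAG recruits protein kinase C isoforms and RasGRP exchange factors until DAG kinases convert it to phosphatidic acid. In microglia, the resident immune cells of the brain, PLCG2 acts below surface receptors such as TREM2 and CSF1R. The 10 genes described here encode steps of both branches and were taken by symbol from the 32285 genes of the count matrices. On the IP3 and calcium side are the IP3 receptor genes Itpr1, Itpr2 and Itpr3, the calcineurin catalytic subunit gene Ppp3ca, and Nfatc1 and Nfatc2. On the DAG side are the kinase genes Prkcb and Prkcd, the Ras and Rap activator gene Rasgrp3, and the DAG kinase gene Dgkd. All 10 symbols matched a single row.

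The data are single-nucleus RNA-seq counts from the cortex of mice aged 7.5 months, made from nuclei that lacked the neuronal protein NeuN in a sort. There were 2 libraries each of 5xFAD-P522R, 5xFAD-M28L and 5xFAD mice, numbered replicate 2 and replicate 3, and each library combined nuclei from male and female mice. P522R and M28L are variants of Plcg2, and every group, the 5xFAD one included, carries the 5xFAD transgenes, among them mutant human APP, which are driven by the neuronal Thy1 promoter and give amyloid plaques. Nuclei without those transgenes were not analysed here. Libraries held 53326947 to 72288942 UMIs (unique transcript molecules) over 9269 to 13783 barcodes, and pairs of libraries shared 20 to 71 barcode sequences. After filters, 55514 nuclei fell into 11 marker-named types, which are called microglia-like and so on because the names rest on marker genes. Of the 15 microglial markers, 13 were highest in the microglia-like nuclei. A group of 380 microglia-like nuclei that also carried 14 of 14 oligodendrocyte markers was left out of the microglia-like type; it made up 15.02% of those nuclei in 5xFAD-P522R replicate 3 and 0.917% to 4.26% in the other libraries.

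Promoter sequence is shown for 3 genes whose highest level was in microglia-like nuclei: Rasgrp3 (ENSMUSG00000071042, chromosome 17, 75435896 to 75529054, plus strand of GRCm38), Dgkd (ENSMUSG00000070738, chromosome 1, 87853287 to 87945180, plus strand) and Prkcd (ENSMUSG00000021948, chromosome 14, 30595354 to 30626210, minus strand). The sequences are the bases before the first start site listed by RefSeq (GRCm38.p6), trimmed where the GENCODE gene begins earlier, and entries existed for 7 of the 10 genes. Capitals mark GGAAA, the core bound by NFAT proteins, or GAGGAAGT, a sequence of the type bound by the myeloid factor PU.1, on either strand. The first runs over chr17:75435655-75435895, the second over chr1:87853037-87853286 and the third over chr14:30626211-30626458 on the minus strand.
Rasgrp3: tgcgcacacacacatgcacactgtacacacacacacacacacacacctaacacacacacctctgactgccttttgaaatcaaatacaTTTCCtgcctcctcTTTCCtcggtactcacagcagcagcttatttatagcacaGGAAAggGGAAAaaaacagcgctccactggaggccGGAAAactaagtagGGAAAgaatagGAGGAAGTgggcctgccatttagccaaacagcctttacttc
Dgkd: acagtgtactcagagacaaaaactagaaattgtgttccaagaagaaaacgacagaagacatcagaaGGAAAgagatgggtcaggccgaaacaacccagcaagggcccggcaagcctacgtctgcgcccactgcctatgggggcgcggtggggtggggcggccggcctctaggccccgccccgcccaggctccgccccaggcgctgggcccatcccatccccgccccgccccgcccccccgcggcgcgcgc
Prkcd: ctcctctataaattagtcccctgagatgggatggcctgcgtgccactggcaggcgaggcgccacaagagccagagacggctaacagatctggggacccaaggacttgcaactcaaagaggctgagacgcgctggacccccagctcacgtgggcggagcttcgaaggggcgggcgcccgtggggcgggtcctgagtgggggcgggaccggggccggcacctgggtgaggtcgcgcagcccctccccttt
The Rasgrp3 window held 6 copies of GGAAA and 1 of GAGGAAGT, the Dgkd window 1 copy of GGAAA, and the Prkcd window neither. RefSeq lists a second start for Rasgrp3 and for Prkcd, and the 250 bases before each of these held neither motif. Of the 32851 promoters in the same table, 55.6% held GGAAA and 2.44% held GAGGAAGT within 250 bases before the start. These matches describe the letters of the windows and say nothing of binding.

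The 3 IP3 receptor genes were highest in different cell types. Levels here are UMIs per 1000000 UMIs of a type in a library (CPM), not scaled further, and are given as the lowest, median and highest of the 6 libraries; types were formed from the same nuclei, so they are described and not tested. Itpr1, the main receptor of neurons and smooth muscle, was highest in pericyte- and smooth muscle-like nuclei with 859, 1109 and 1198 CPM. Fibroblast-like nuclei came next with 676, 808 and 1077 CPM, overlapping them, and excitatory neuron-like nuclei followed apart from both at 533, 542 and 601 CPM. In microglia-like nuclei Itpr1 reached 75.9, 88.6 and 98.0 CPM, ninth of 11 types and overlapping OPC-like nuclei (oligodendrocyte precursors, 92.4 to 116 CPM). Neuronal transcripts in microglia-like nuclei, from 12 neuronal genes, would carry along a median of 15.8 CPM of Itpr1, 18.2% of what was seen.

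Itpr2, on chromosome 6 from 146108299 to 146502223 (minus strand), had its highest level in committed oligodendrocyte precursor-like nuclei, at 1580, 1793 and 2237 CPM. That range lay apart from the next type, pericyte- and smooth muscle-like nuclei, with 772, 868 and 972 CPM. OPC-like nuclei had 659, 727 and 757 CPM and microglia-like nuclei 547, 605 and 703 CPM, which overlapped. Along the oligodendrocyte lineage Itpr2 was thus high in OPC-like nuclei, higher in committed precursors in 6 of 6 libraries, and low in mature oligodendrocyte-like nuclei, at 32.3, 37.7 and 47.5 CPM. Excitatory neuron-like nuclei had the lowest values, 7.89, 11.6 and 13.4 CPM, of which microglial transcripts would carry a median of 5.03 CPM. Itpr3 was highest in endothelial-like nuclei with 52.5, 64.7 and 80.4 CPM, above every other type in 6 of 6 libraries. In microglia-like nuclei it had 11.99, 13.7 and 18.9 CPM, and in committed precursors 0 UMIs in all libraries.

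**Figure D1:**
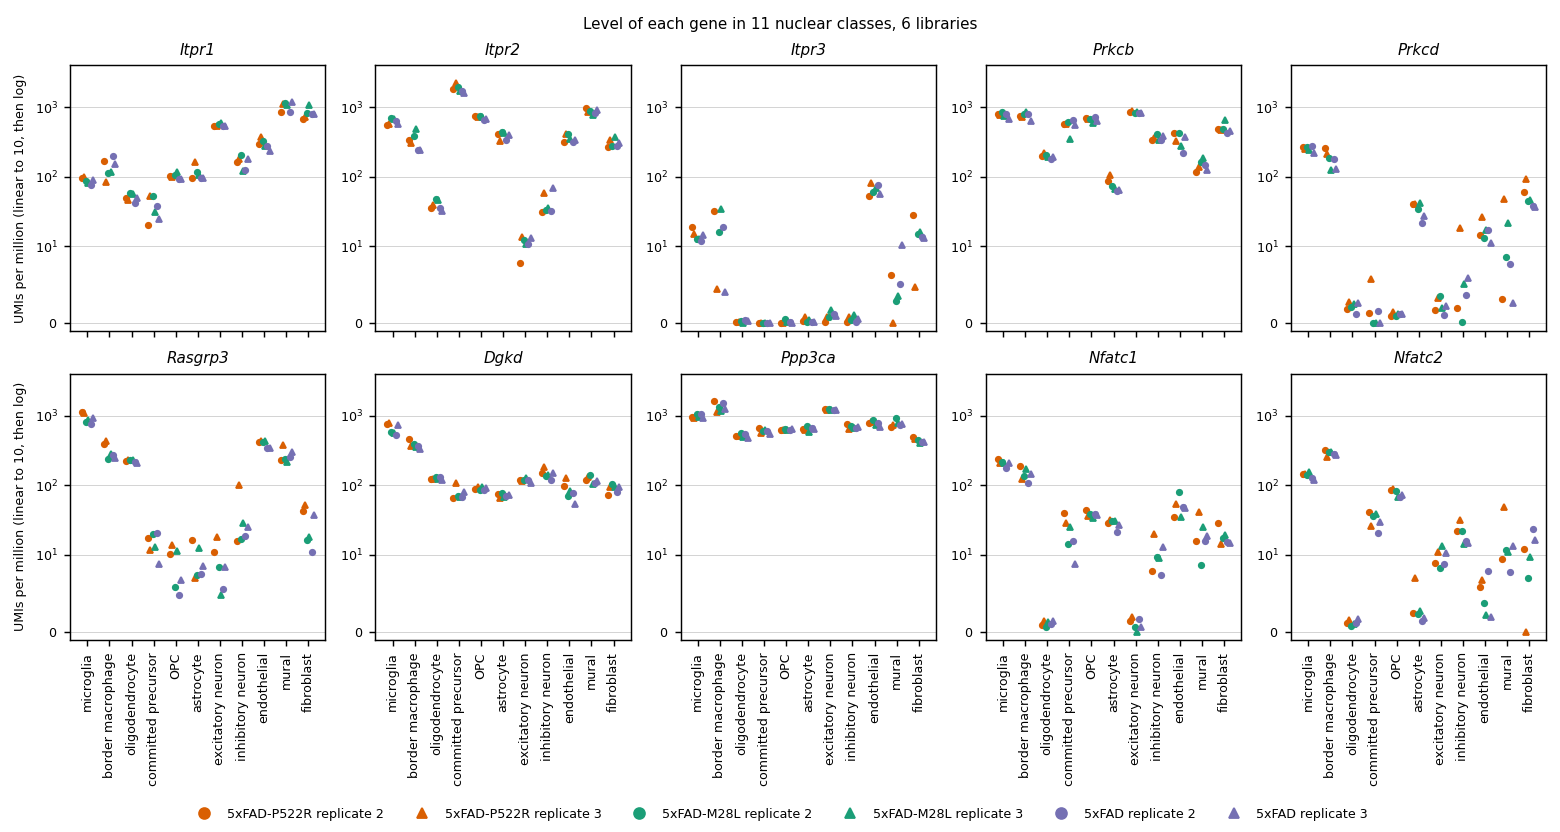
Level of the 10 genes in 11 nuclear types (x axis; mural stands for pericyte- and smooth muscle-like), in CPM on an axis that is linear to 10 and logarithmic above. Each point is a library, coloured by group and shaped by replicate; Itpr2 peaks in committed precursors at 1580 to 2237 CPM, and Rasgrp3, Dgkd, Prkcd and Nfatc1 have their highest medians in microglia-like nuclei.

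Most of the DAG-side genes were highest in microglia-like nuclei. Rasgrp3 had 760, 904 and 1110 CPM there, apart from endothelial-like nuclei with 339, 418 and 436 CPM. Dgkd had 526, 654 and 777 CPM in microglia-like nuclei, apart from border macrophage-like nuclei with 335, 364 and 457 CPM. Prkcd, a calcium-independent kinase activated by DAG, had 220, 258 and 278 CPM in microglia-like nuclei and 126, 183 and 256 CPM in border macrophage-like nuclei. These ranges overlapped, although microglia-like nuclei were higher in 6 of 6 libraries, and the third type, fibroblast-like nuclei, reached 94.4 CPM at most. Prkcb, a calcium-dependent kinase of both leukocytes and neurons, did not separate these cells: excitatory neuron-like nuclei had 832, 843 and 879 CPM, microglia-like nuclei 676, 797 and 850 CPM and border macrophage-like nuclei 629, 780 and 867 CPM.

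On the calcium side, Nfatc1 was highest in microglia-like nuclei, at 176, 207 and 235 CPM, overlapping border macrophage-like nuclei at 106, 139 and 188 CPM. Nfatc2 showed the other order, with 251, 291 and 320 CPM in border macrophage-like nuclei, apart from 119, 141 and 152 CPM in microglia-like nuclei. OPC-like nuclei held 67.6, 77.8 and 86.5 CPM of Nfatc2, whereas mature oligodendrocyte-like nuclei held 0.759, 1.11 and 1.64 CPM. Ppp3ca was found everywhere, between a median of 431 CPM in fibroblast-like nuclei and 1298 CPM in border macrophage-like nuclei. Its microglial range, 923, 958 and 1070 CPM, lay below that of excitatory neuron-like nuclei at 1192, 1211 and 1231 CPM.

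The genes whose levels across 66 points (11 types in 6 libraries) were most like each member were found by Pearson's r of log2(CPM + 1) among 13922 genes. The points share libraries and depth, so r is a description. For Itpr2 they were Maml2, a Notch coactivator (r = 0.956), Mtap, an enzyme of methionine salvage (0.894), and Fam114a1 (0.890). For Rasgrp3 they were the endocytosis adaptor Picalm (0.913), Git2 (0.893) and Fam117b (0.891), and for Prkcd the genes Trim30d (0.952), Elf4 (0.940) and Mapkapk3 (0.923). For Dgkd the gene models Gm32591 (0.940) and A530088E08Rik (0.933) ranked first. The first-ranked gene was Sept11 for Itpr1 (0.917), Clec2d for Itpr3 (0.931), Tln2 for Prkcb (0.850), Rgs14 for Ppp3ca (0.867), Apobec3 for Nfatc1 (0.908) and Galnt10 for Nfatc2 (0.867).

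The groups were then compared within microglia-like nuclei. Values from here are CPM after TMM scaling (a correction for library composition), tests are edgeR's two-sided quasi-likelihood test on summed UMIs with Benjamini-Hochberg adjustment over all genes, and fold changes are on the log2 scale. The labels do not say whether replicates 2 and 3 come from separate mice, so the p-values rest on differences among these libraries, which may be technical. The libraries held 876 to 1707 microglia-like nuclei and 3432543 to 6909001 UMIs. All 10 members were tested, and none passed an adjusted p of 0.05 in any contrast. Of all genes tested, 0.022% passed for P522R against M28L, 0.022% for P522R against 5xFAD and 0.00735% for M28L against 5xFAD, which is 3, 3 and 1 of 13614 genes. At an unadjusted p under 0.05 there were 3, 1 and 2 members, and 8.56%, 9.43% and 6.39% of all genes.

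Between the variants, Itpr2, Rasgrp3 and Dgkd had an unadjusted p under 0.05. Itpr2 had 538 and 570 CPM in the P522R libraries, against 710 and 704 CPM in the M28L libraries and 643 and 568 CPM in the 5xFAD libraries (replicate 2 first). Both P522R libraries were below both M28L libraries, and the 5xFAD libraries overlapped those of P522R. The means were 554 ± 22.6 CPM in P522R and 707 ± 4.10 CPM in M28L (SD, n = 2), a log2 fold change of −0.35 with SE 0.090 and an adjusted p of 0.311 by edgeR. M28L was above 5xFAD, which averaged 605 ± 52.8 CPM, by 0.22 (SE 0.090, adjusted p = 0.773).

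Rasgrp3 had 1090 and 1088 CPM in the P522R libraries, against 818 and 899 CPM in M28L and 762 and 931 CPM in 5xFAD. Both P522R libraries lay above the other 4. The fold change was 0.34 against M28L (SE 0.106, adjusted p = 0.405) and 0.36 against 5xFAD (SE 0.106, adjusted p = 0.487). M28L, at 859 ± 57.1 CPM, and 5xFAD, at 846 ± 120 CPM, differed by 0.02 (SE 0.106). Dgkd, whose product removes the DAG that RasGRP proteins bind, had 744 and 777 CPM in the P522R libraries, against 586 and 586 CPM in M28L and 527 and 726 CPM in 5xFAD. P522R was above M28L by 0.38 (SE 0.133, adjusted p = 0.481) and above 5xFAD by 0.28 (SE 0.133, adjusted p = 0.550).

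**Figure D2:**
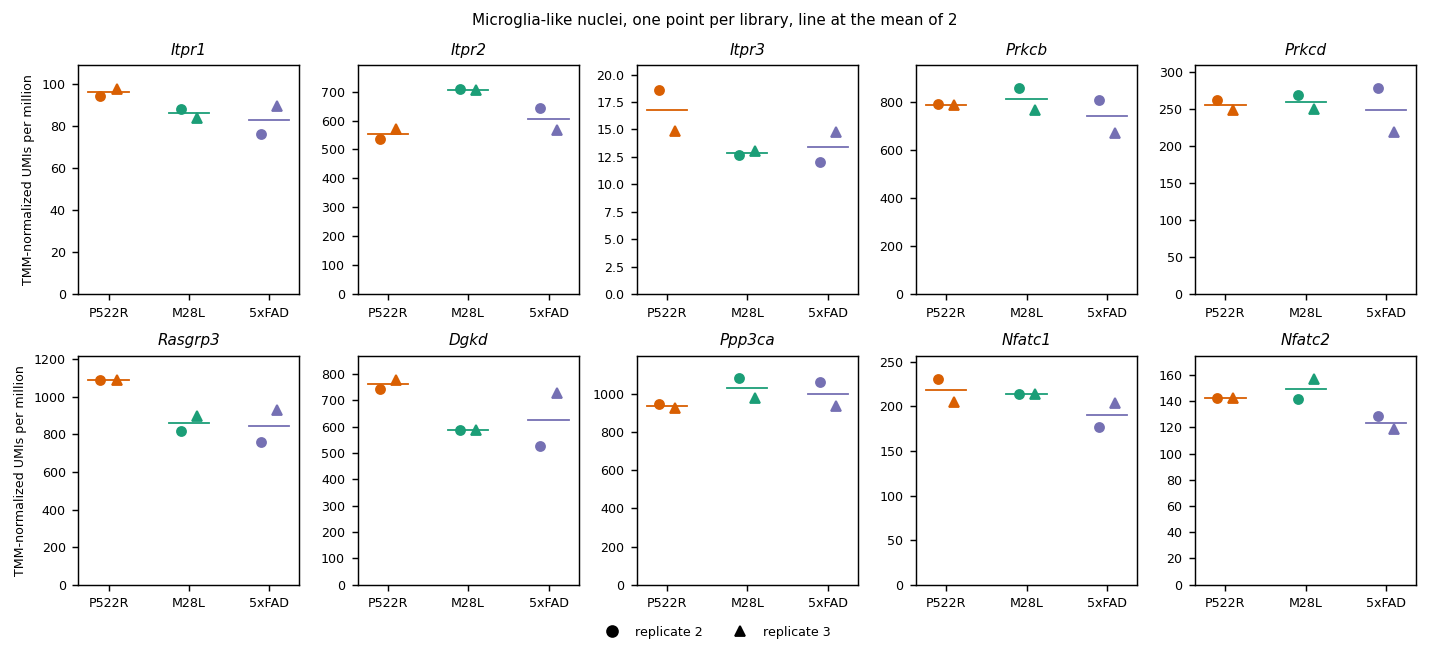
TMM-normalized CPM (y axis, from 0) of the 10 genes in microglia-like nuclei by group (x axis), with a point per library and a line at the mean of 2 libraries. Rasgrp3 stands at 1090 and 1088 CPM in P522R, above the other 4 libraries, and Itpr2 at 538 and 570 CPM in P522R, below both M28L libraries.

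These 3 differences passed in 4 of 19 alternative fits, in which more of all genes passed as well. In a fit of only the 4 P522R and M28L libraries, the adjusted p by edgeR was 0.0170 for Itpr2 at −0.35, 0.0168 for Rasgrp3 at 0.35 and 0.00926 for Dgkd at 0.38, where 2.21% of all genes passed. Leaving out a single 5xFAD library did the same, with adjusted p of 0.0121 for Itpr2, 0.0136 for Rasgrp3 and 0.00692 for Dgkd without replicate 2, and 0.0140, 0.0112 and 0.00612 in the same order without replicate 3, where 2.28% and 2.24% of all genes passed. They also passed in all 6 libraries with no filter on low genes (adjusted p = 0.0246, 0.011 and 0.0067), where 1.86% of all genes did. Leaving out a P522R or an M28L library gave 0.763 to 0.946, and DESeq2 on all 6 libraries gave 0.598, 0.820 and 0.938 for Itpr2, Rasgrp3 and Dgkd. Without 5xFAD replicate 3 the distance of P522R from the remaining 5xFAD library was 0.52 for Rasgrp3 (adjusted p = 0.00292) and 0.54 for Dgkd (adjusted p = 0.00251), with 5.48% of all genes passing, and without replicate 2 it was 0.23 and 0.07 (adjusted p = 0.756 and 0.946), where the lone 5xFAD library is assumed to vary like the others. Over the 19 alternatives the adjusted p for P522R against M28L ran from 0.0121 to 0.946 for Itpr2, from 0.011 to 0.985 for Rasgrp3 and from 0.00612 to 0.946 for Dgkd.

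Of the remaining members, Nfatc2 had an unadjusted p under 0.05 for M28L against 5xFAD. It had 142 and 142 CPM in P522R and 142 and 157 CPM in M28L, all above the 129 and 119 CPM of 5xFAD, with fold changes of 0.20 (SE 0.100, adjusted p = 0.553) and 0.27 (SE 0.099, adjusted p = 0.773). Nfatc1 had 230 and 205 CPM in P522R, against 213 and 214 CPM in M28L and 177 and 204 CPM in 5xFAD, a difference from 5xFAD of 0.19 (SE 0.104) for P522R and 0.16 (SE 0.104) for M28L. Itpr1 had 94.2 and 97.9 CPM in P522R, above the 88.3 and 84.0 CPM of M28L and the 76.1 and 89.5 CPM of 5xFAD. Itpr3 had 18.6 and 14.8 CPM in P522R, against 12.7 and 13.03 CPM in M28L and 12.03 and 14.7 CPM in 5xFAD, from 43 to 102 UMIs a library (0.36, SE 0.211, for P522R against M28L). The fold changes of Prkcb, Prkcd and Ppp3ca stayed between −0.14 and 0.13 in all 3 contrasts, with SE of 0.094 to 0.119, and an unadjusted 95% interval within −0.35 and 0.37.

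Of the 10 members, 4 had both P522R libraries above both M28L libraries, where 20.5% of all genes did, and 2 had both below, where 21.5% did. Against 5xFAD, 6 members had both P522R libraries above (20.8% of all genes) and 0 below (20.8%), and 3 had both M28L libraries above (18.2%) and 0 below (17.1%). The members' median fold change was 0.0022 for P522R against M28L, 0.20 for P522R against 5xFAD and 0.06 for M28L against 5xFAD, beside −0.0079, −0.00061 and −0.0029 for all genes. The 3 contrasts share libraries, so the counts are not independent of each other.

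**Figure D3:**
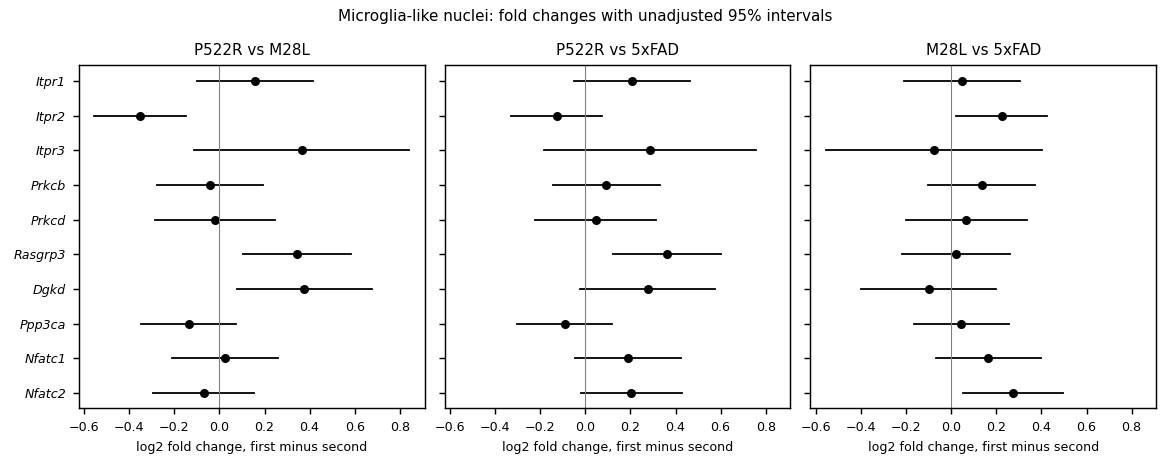
Log2 fold changes (x axis, first group minus second) of the 10 genes in microglia-like nuclei for the 3 contrasts, with unadjusted 95% intervals as lines. For P522R against M28L the intervals of Itpr2 (−0.35), Rasgrp3 (0.34) and Dgkd (0.38) lie off 0, and no adjusted p is under 0.05.

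The same genes also had different levels in different microglial clusters. Within the microglia-like nuclei, a cluster of 2478 nuclei was named disease-associated-like, after a state that microglia take near plaques, with 15 of 19 markers at least 0.58 log2 units above the other microglial clusters and a summed marker level of 3267 to 6214 CPM. The largest cluster, of 3058 nuclei, had 395 to 434 CPM of those markers, and all 13 homeostatic markers stood above their mean in the other clusters; only 2 of them passed the bound of 0.58, so it has no state name. The 10 members were not used to form the clusters, but the nuclei are the same, so the following is a description (CPM not scaled). Rasgrp3 had 1108, 1268 and 1428 CPM (lowest, median and highest library) in the disease-associated-like cluster and 585, 673 and 731 CPM in the largest cluster. Dgkd had 693, 909 and 962 CPM in the disease-associated-like cluster and 394, 432 and 495 CPM in the largest cluster. Both genes were higher in the disease-associated-like cluster in 6 of 6 libraries, by a median log2 ratio of 0.97 and 0.99, and so was Nfatc1, by 0.40.

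Of the IP3 receptor genes, Itpr2 and Itpr3 ran the other way. Itpr2 had 458, 511 and 605 CPM in the disease-associated-like cluster and 660, 715 and 755 CPM in the largest cluster, lower in 6 of 6 libraries by a median log2 ratio of −0.45. Itpr3 (−0.99), Ppp3ca (−0.29) and Prkcd (−0.54) were also lower in 6 of 6 libraries, as was Plcg2 itself (−0.34). Itpr1 was higher in 4 of 6 libraries (0.17), Nfatc2 in 1 (−0.42) and Prkcb in 3 (−0.0067). Higher Rasgrp3 and Dgkd were not confined to the disease-associated-like cluster. In the interferon-like cluster of 588 nuclei they were above the largest cluster in 6 of 6 libraries, by a median of 0.26 and 0.48, as was Itpr1, by 1.01. In another cluster, which has no state name, they were above it in 6 of 6 libraries by 0.41 and 0.71.

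**Figure D4:**
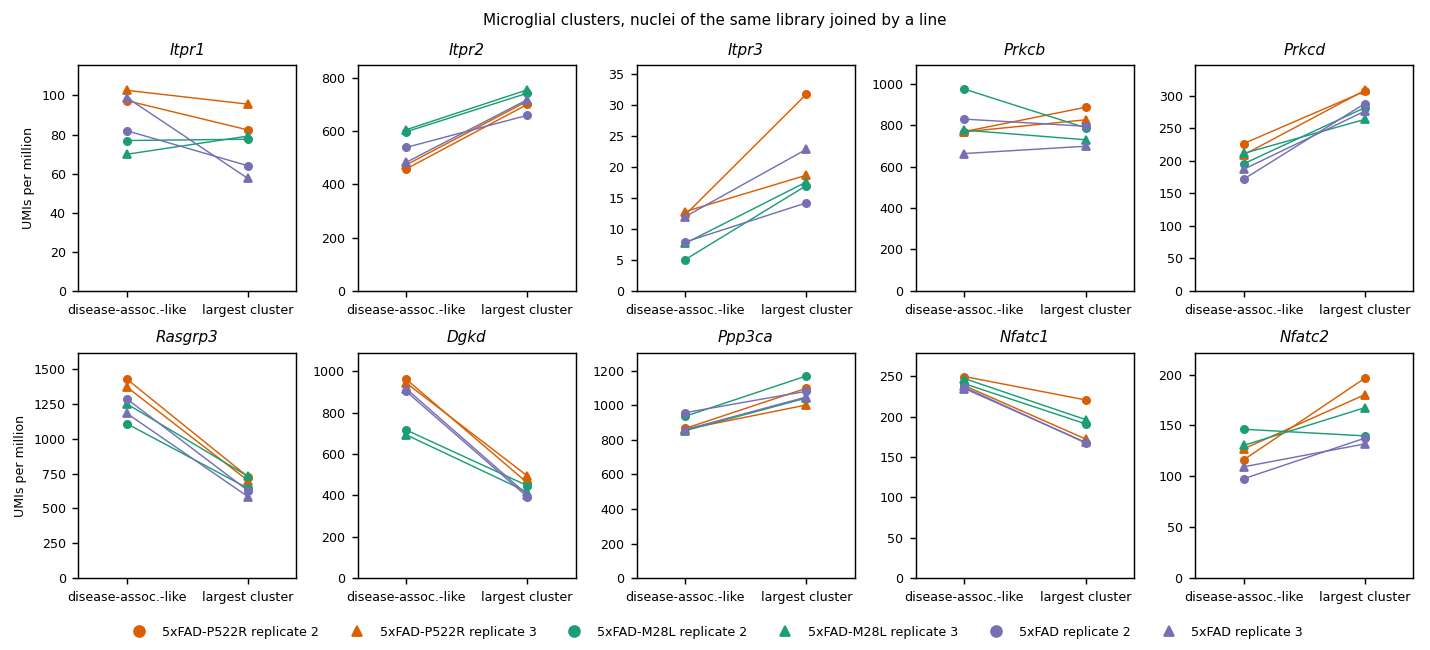
CPM (y axis, from 0) of the 10 genes in the disease-associated-like cluster and in the largest microglial cluster (x axis), with a line for each of the 6 libraries. All 6 lines of Rasgrp3, Dgkd and Nfatc1 are higher on the disease-associated-like side, and all 6 of Itpr2, Itpr3, Prkcd and Ppp3ca are lower there.

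The share of the disease-associated-like cluster differed between libraries. With the 380 nuclei that also carried oligodendrocyte markers counted in the total, the disease-associated-like cluster held 44.0% and 39.5% of microglia-like nuclei in the P522R libraries, against 15.8% and 17.98% in M28L and 16.2% and 44.0% in 5xFAD. The 5xFAD library with the larger share, replicate 3, also had the higher Rasgrp3 (931 against 762 CPM in replicate 2) and Dgkd (726 against 527 CPM) and the lower Itpr2 (568 against 643 CPM). Within the largest cluster, P522R and M28L differed by 0.02 for Rasgrp3 (SE 0.090), 0.12 for Dgkd (SE 0.091) and −0.11 for Itpr2 (SE 0.084), with adjusted p of 0.985, 0.907 and 0.899. Within the disease-associated-like cluster the same differences were 0.21 for Rasgrp3 (SE 0.102, adjusted p = 0.524), 0.40 for Dgkd (SE 0.099, adjusted p = 0.0527) and −0.40 for Itpr2 (SE 0.105, adjusted p = 0.0678). The Xist-marked share also differed between libraries, in another order by type. Of microglia-like nuclei marked by Xist or Y-linked UMIs alone, 76.1% and 73.3% were Xist-marked in P522R, 48.0% and 62.3% in M28L and 44.2% and 69.9% in 5xFAD. Of oligodendrocyte-like nuclei so marked, the share was 58.8% and 59.1% in P522R, 66.8% and 64.9% in M28L and 56.9% and 53.0% in 5xFAD. In Xist-marked microglia-like nuclei alone the differences of P522R from M28L were 0.24 for Rasgrp3, 0.37 for Dgkd and −0.55 for Itpr2. Their adjusted p by edgeR was 0.922, 0.922 and 0.895. Summed neuronal markers in microglia-like nuclei were 302 and 320 CPM in P522R, 271 and 245 CPM in M28L and 266 and 268 CPM in 5xFAD, and those of 8 oligodendrocyte genes were 890 and 1002 CPM in P522R, 765 and 938 CPM in M28L and 644 and 783 CPM in 5xFAD, while those of 8 astrocyte genes were 502 and 506 CPM in P522R, 756 and 811 CPM in M28L and 724 and 727 CPM in 5xFAD, with no gene of the 3 lists at 0. The part of cluster shares, sex or this RNA in the group differences was not tested.

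**Figure D5:**
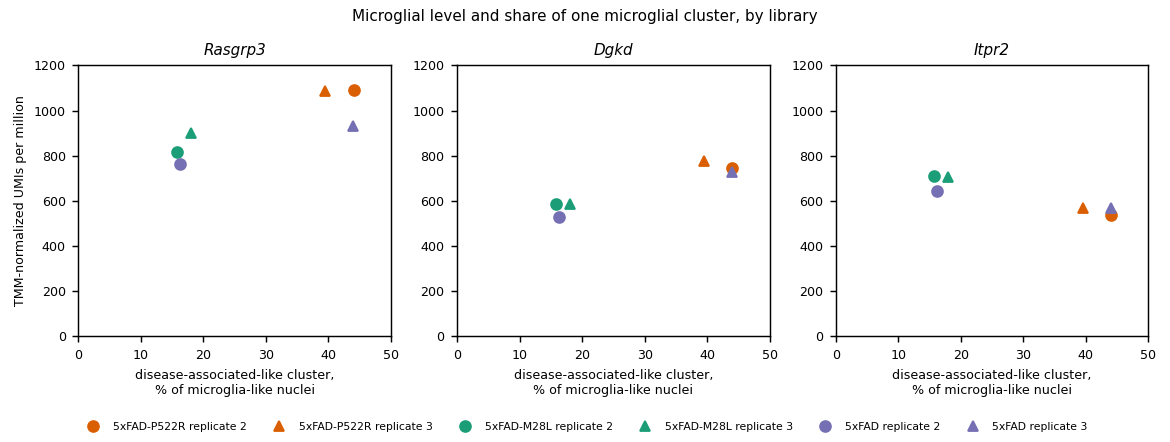
TMM-normalized CPM of Rasgrp3, Dgkd and Itpr2 in microglia-like nuclei (y axis) against the percentage of microglia-like nuclei, those 380 nuclei included, in the disease-associated-like cluster (x axis), with 1 point per library. The 3 libraries at 39.5% to 44.0% are both P522R libraries and 5xFAD replicate 3, and the other 3 lie at 15.8% to 17.98%.

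Outside microglia no member passed either. Between 6 and 10 members were tested in each of the other 10 types, over 30 comparisons, 21 of which had 0% of all genes passing. Of 258 member tests there, 28 had an unadjusted p under 0.05, and the lowest adjusted p was 0.286; 7.54% of the tests of all genes had such an unadjusted p. In the other 9 comparisons the shares of all genes passing were 0.0511% (P522R against 5xFAD) and 0.0128% (P522R against M28L) in oligodendrocyte-like, 0.029% in astrocyte-like and 0.555% in inhibitory neuron-like nuclei (both P522R against 5xFAD). They were 0.0241% (P522R against 5xFAD) and 0.0121% (M28L against 5xFAD) in endothelial-like nuclei, and 0.147% (P522R against M28L), 0.114% (P522R against 5xFAD) and 0.0163% (M28L against 5xFAD) in pericyte- and smooth muscle-like nuclei. The tests of whether a contrast differed between microglia-like and another type numbered 300 for the members, of which 0 passed (lowest adjusted p = 0.719 by edgeR) and 37 had an unadjusted p under 0.05. Over all genes 0.00227% of such tests passed, and 4.91% had an unadjusted p under 0.05. Types come from the same libraries and are not independent of each other.

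Itpr2 had higher values in M28L than in 5xFAD in several types, not all of them glial. In oligodendrocyte-like nuclei it had 47.2 and 48.3 CPM in M28L, against 34.6 and 32.5 CPM in 5xFAD, a fold change of 0.51 (SE 0.089, adjusted p = 0.344). DESeq2 called this difference (0.51, adjusted p = 0.0158, with 1.32% of all genes called), and over 15 alternatives its adjusted p ran from 0.00465 to 0.865. Microglial RNA would bring 7.12 and 8.13 CPM of Itpr2 to these nuclei in M28L and 7.03 and 7.81 CPM in 5xFAD. In border macrophage-like nuclei it had 428 and 541 CPM in M28L, against 271 and 273 CPM in 5xFAD (0.83, SE 0.214, adjusted p = 0.999), from 60 to 126 UMIs a library. That cluster held 432 nuclei before doublets were removed. At a finer clustering it held 374, and a T cell-like cluster of 58 appeared, a type that the main clustering did not name. Whether this type includes T cell-like nuclei, which had 670 CPM of Itpr2, was not tested. In OPC-like nuclei Itpr2 had 770 and 724 CPM in M28L, against 663 and 695 CPM in 5xFAD (0.14, SE 0.058, adjusted p = 0.398). P522R was below M28L for Itpr2 in oligodendrocyte-like (−0.35, SE 0.088), astrocyte-like (−0.31, SE 0.133) and border macrophage-like nuclei (−0.46, SE 0.214), none of them called. That order did not hold in every type. Committed precursor-like nuclei had 1872 and 2269 CPM in P522R, against 2003 and 1867 CPM in M28L. Pericyte- and smooth muscle-like nuclei had 1035 and 902 CPM in P522R, against 958 and 829 CPM in M28L. OPC-like nuclei had 713 and 731 CPM in P522R, against 770 and 724 CPM in M28L. The libraries of the groups overlapped in each of these. In neuron-like nuclei the M28L difference from 5xFAD was −0.05 (SE 0.279) for excitatory and −0.55 (SE 0.393) for inhibitory ones, both within the spread. Itpr1 in oligodendrocyte-like nuclei ran with Itpr2, at 58.6 and 58.3 CPM in M28L, against 42.1 and 49.0 CPM in 5xFAD (0.36, SE 0.090, adjusted p = 0.344). Neuronal RNA would bring a median of 10.7 CPM of Itpr1 to these nuclei, 22.5% of what was seen. Their neuronal marker sum was 210 and 172 CPM in M28L and 185 and 185 CPM in 5xFAD.

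In border macrophage-like nuclei Rasgrp3 had 410 and 472 CPM in P522R, against 265 and 317 CPM in M28L (0.60, SE 0.219, adjusted p = 0.999 by edgeR) and 303 and 273 CPM in 5xFAD (0.61, SE 0.218, adjusted p = 0.996). These values rest on 60 to 113 UMIs a library and 47 to 131 nuclei. Carry-over of microglial RNA was not estimated for this type. In OPC-like nuclei Rasgrp3 had 9.79 and 13.5 CPM in P522R, against 4.81 and 6.79 CPM in 5xFAD (1.01, SE 0.327, adjusted p = 0.372 by edgeR). There the 15 microglial markers summed to 148 to 193 CPM, an amount with which 8.33 to 14.2 CPM of microglial Rasgrp3 would come, a median of 127.5% of what was seen. In excitatory neuron-like nuclei Rasgrp3 had 10.5 and 17.5 CPM in P522R, 8.27 and 4.82 CPM in M28L and 5.70 and 8.55 CPM in 5xFAD, beside an expected 4.26 to 15.1 CPM, a median of 88.0% of what was seen. In astrocyte-like nuclei Prkcd had a fold change of 0.64 (SE 0.186, adjusted p = 0.339) for P522R and 0.64 (SE 0.172, adjusted p = 0.919) for M28L against 5xFAD, and Prkcb 0.48 (SE 0.125, adjusted p = 0.286) for P522R. Microglial RNA would supply a median of 6.43% of astrocytic Prkcd. Neuronal RNA would supply a median of 31.2% of astrocytic Prkcb, and the neuronal marker sum there was 297 and 412 CPM in P522R, 233 and 228 CPM in M28L and 174 and 188 CPM in 5xFAD.

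The wider pathway was read from 8 lists that hold the phospholipases C, IP3 and store-calcium genes, further protein kinases C and D, DAG kinases and lipases, RasGRP and Ras targets, CARD-BCL10-MALT1, calcineurin and the other NFAT genes. In microglia-like nuclei 77 of their 89 genes were tested and 0 passed in any contrast by edgeR. At an unadjusted p under 0.05 there were 12 for P522R against M28L, 16 for P522R against 5xFAD and 12 for M28L against 5xFAD, beside the 8.56%, 9.43% and 6.39% of all genes given above, and the median fold change of the 77 was −0.02, 0.05 and 0.05 in the same order. The list of IP3 and store-calcium genes had 22 of 27 tested, with 2, 6 and 4 at an unadjusted p under 0.05. The phospholipases C, Plcg2 among them, had 9 of 12 tested, with 4, 2 and 4, and median fold changes of −0.17, 0.09 and 0.22. The protein kinases C and D had 10 of 10 tested, with 3, 2 and 1, and each of the other 4 lists had 0 to 2. The DAG kinases and lipases had 10 of 11 tested, with 1, 3 and 2, and median fold changes of −0.04, 0.16 and 0.23. Among the DAG kinases, Dgkz had 404 ± 13.3 CPM in P522R, against 293 ± 32.2 CPM in M28L (0.47, SE 0.173, adjusted p = 0.507) and 271 ± 81.7 CPM in 5xFAD (0.57, SE 0.173, adjusted p = 0.487; SD, n = 2). Dgki had 93.9 ± 4.45 CPM in P522R and 90.5 ± 16.02 CPM in M28L, against 59.5 ± 10.97 CPM in 5xFAD, with fold changes of 0.64 (SE 0.160, adjusted p = 0.461) and 0.59 (SE 0.159, adjusted p = 0.745). Plcg2 had 447 ± 19.3 CPM in P522R, 475 ± 47.7 CPM in M28L and 409 ± 4.93 CPM in 5xFAD.

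Pathway genes passed in P522R against 5xFAD in types other than microglia. In inhibitory neuron-like nuclei Ryr3 and Ryr1 rose, genes of the ryanodine receptor family of calcium release channels of the endoplasmic reticulum. They were among 79 of 14232 genes that passed there (0.555%), 70 of them higher in P522R. In the same type 0 genes passed for P522R against M28L and 0 for M28L against 5xFAD. Ryr3 had 551 ± 4.18 CPM in P522R and 208 ± 5.03 CPM in 5xFAD (1.41, SE 0.112, adjusted p = 0.00697 by edgeR). Ryr1 had 45.4 ± 3.76 CPM in P522R and 11.9 ± 0.994 CPM in 5xFAD (1.92, SE 0.209, adjusted p = 0.0121 by edgeR). Dgkz rose by 0.90 (SE 0.122, adjusted p = 0.0276) and the protein kinase C gene Prkcq by 1.17 (SE 0.180, adjusted p = 0.0432). Without 5xFAD replicate 2 the adjusted p was 0.128 for Ryr3, 0.165 for Ryr1, 0.360 for Dgkz and 0.428 for Prkcq, and without 5xFAD replicate 3 it was 0.0559, 0.107, 0.160 and 0.116. Dgkz and Prkcq also did not pass without P522R replicate 3 (adjusted p = 0.0984 and 0.127), M28L replicate 2 (0.0856 and 0.122) or M28L replicate 3 (0.0841 and 0.118), or with only the 4 libraries compared (0.0962 and 0.135). Leaving out 1 library of P522R or 5xFAD gave log2 fold changes of 1.38 to 1.44 for Ryr3, 1.82 to 2.01 for Ryr1, 0.78 to 1.00 for Dgkz and 0.99 to 1.36 for Prkcq. That type pools clusters whose mix differed. One cluster held 20.6% and 26.5% of the type's nuclei in P522R, 10.7% and 7.22% in M28L and 1.77% and 2.78% in 5xFAD. Stac, Drd3, Gpr149, Htr4 and Isl1 were among the genes most raised in it over the other clusters. Another held 9.19% and 17.2% in P522R, 28.5% and 23.3% in M28L and 29.4% and 30.9% in 5xFAD. Its most raised genes included Igfbpl1, St8sia2, Sox11 and Dlx1. The brain region and maturity of these clusters were not tested. The sort against NeuN can also set which neurons remain. The 15 microglial markers summed in this type to 136 and 868 CPM in P522R (replicate 2 first), 119 and 259 CPM in M28L and 164 and 256 CPM in 5xFAD. The part of the mix, the sort or this RNA in these differences was not tested. In pericyte- and smooth muscle-like nuclei the DAG kinase gene Dgki rose to 321 ± 15.01 CPM in P522R, against 108 ± 12.2 CPM in 5xFAD (1.57, SE 0.257, adjusted p = 0.0123), from libraries of 35 to 140 nuclei. Of all genes tested there, 0.114% passed. The 8 oligodendrocyte genes summed there to 3920 and 2533 CPM in P522R, against 1422 and 1993 CPM in 5xFAD, and the 8 astrocyte genes to 4285 and 3956 CPM in P522R, against 5801 and 4801 CPM in 5xFAD. The 15 microglial markers summed to 271 and 1541 CPM in P522R (replicate 2 first), 281 and 278 CPM in M28L and 226 and 350 CPM in 5xFAD. The part of this RNA in the difference was not tested. Dgki did not pass with called doublets kept (0.74, adjusted p = 0.967), by DESeq2 (adjusted p = 0.174) or without P522R replicate 2 (adjusted p = 0.0813).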

How the data were processed

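The data are single-nucleus 3' RNA-seq counts. Per the file headers and the submitters' processing notes, the authors made the deposited UMI counts per gene and nucleus with Cell Ranger against mm10; the headers name version 6.1.2 in 5 libraries and 5.0.1 in 5xFAD-P522R replicate 3. Whether intronic reads were counted is not given in the sources used here. The 10 members, the pathway and marker lists and the rule for the genes named (all members, pathway genes that passed in any type, Plcg2, and the 3 genes most like each member) were chosen with earlier results of these data known. How many animals stand behind each library was not given in the sources used here.

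Filters of at least 500 UMIs and 300 genes and no more than 5% mitochondrial UMIs left 62651 nuclei, and 2566 called doublets were removed with 1 Scrublet threshold for all libraries (0.311), since the automatic threshold marked under 0.5% in 2 libraries. scanpy 1.11.5 and leidenalg 0.10.2 gave 33 clusters, formed without the members, pathway genes and sex-linked genes; 9 stayed unnamed. The mixed microglial cluster was taken out after the clusters were seen and before contrasts were fitted.

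UMIs were summed per library and type and tested with edgeR 4.0.16 in R 4.3.3 (quasi-likelihood test, filterByExpr with a minimum count of 10, TMM, all 6 libraries, no replicate block, Benjamini-Hochberg over all genes); the code was tested on simulated data. Alternatives were other size factors and filters, a replicate block, each library left out, DESeq2 1.42.0, other nucleus filters and cluster settings, and Xist-marked nuclei only. Single microglial clusters, and the mixed cluster kept, were added after seeing the data. Expected carry-over of RNA is a gene's CPM in the source type times the ratio of summed marker CPM. Intervals of fold changes cover the spread between libraries only. A gene among those most like Dgkd in pattern is not reported here.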

Additional observations from a re-analysis of the deposited data

How the results depend on the processing

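Low genes such as Itpr3 rest on few UMIs. Among the members' microglial fold changes, 520 of 570 values under the alternatives kept direction and side of the threshold, 15 passed it newly and 35 reversed, over 15 of 30 fold changes; for other types 403 of 415 were kept, which cover only the 28 of 258 fold changes with an unadjusted p under 0.05. Of 330 median levels, 322 moved by less than the spread between libraries. Cause was not tested in any of these cases. The number of members passing in microglia-like nuclei was 3 for P522R against M28L with no filter, 3 with only the 4 libraries compared, and 0 to 3 when a library was left out; for P522R against 5xFAD it was 1 with no filter and 0 to 2 with a library left out. All genes passing there for P522R against M28L numbered 3 in the fit reported, 411 with no filter (1.86%), 138 with a replicate block (1.01%), 291 with only the 4 libraries and 46 by DESeq2; for P522R against 5xFAD 3, 497 (2.25%), 206 (1.51%), 0 and 7; and for M28L against 5xFAD 1, 205 (0.928%), 57 (0.419%), 0 and 6. Pathway genes passing there numbered, for P522R against M28L, 4 with no filter, 2 with only the 4 libraries, 2 in the disease-associated-like cluster and 0 to 3 with a library left out; for P522R against 5xFAD, 4 with no filter and 0 to 9 with a library left out; and for M28L against 5xFAD, 1 with no filter and 0 to 2 with a library left out. With no filter, members passed in oligodendrocyte-like (2) and astrocyte-like nuclei (1) for M28L against 5xFAD, in OPC-like (1), excitatory (1) and inhibitory neuron-like nuclei (2) for P522R against 5xFAD, and in excitatory (1) and inhibitory neuron-like nuclei (1) for P522R against M28L, where 0.319% to 3.31% of all genes passed. DESeq2 called 1 member in oligodendrocyte-like nuclei for M28L against 5xFAD, and leaving a library out called 0 to 1 in inhibitory neuron-like nuclei for P522R against 5xFAD (0.663% of all genes where it called 1). A fit with the replicate number as a block, for samples that share only a number, gave 1, 3 and 1 pathway genes in microglia-like nuclei for P522R against M28L, P522R against 5xFAD and M28L against 5xFAD, 2 members in oligodendrocyte-like nuclei for M28L against 5xFAD (Itpr2 by 0.51, adjusted p = 0.00858, among them) and 1 in OPC-like nuclei for P522R against 5xFAD, with 5.91% and 6% of all genes; the deviations of same-numbered libraries correlated at 0.15 to 0.30 in microglia-like and 0.34 to 0.43 in oligodendrocyte-like nuclei. Reversed values in microglia-like nuclei follow. For M28L against 5xFAD they were Dgkd in Xist-marked nuclei (0.11) and in the largest cluster (0.13), Prkcd in the largest cluster (−0.034), and Itpr1 (−0.34), Ppp3ca (−0.0070) and Rasgrp3 (−0.049) in the disease-associated-like cluster. For P522R against 5xFAD they were Itpr2 in the largest cluster (0.024) and Prkcd with doublets kept (−0.022) or the mixed cluster kept (−0.084). For P522R against M28L they were Itpr1 in Xist-marked nuclei (−0.049), Nfatc1 in Xist-marked nuclei (−0.16), with doublets kept (−0.024), in the disease-associated-like (−0.039) and largest cluster (−0.022) and with the mixed cluster (−0.092), and Nfatc2 (0.26), Prkcb (0.14) and Prkcd (0.14) in the largest cluster, the last also in the disease-associated-like cluster (0.054). In fibroblast-like nuclei Rasgrp3 for P522R against M28L was −0.36 with doublets kept. Leaving out a library gave, for M28L against 5xFAD, Itpr1 −0.056 to 0.18, Itpr3 −0.20 to 0.095, Prkcd −0.10 to 0.24, Rasgrp3 −0.12 to 0.17, Dgkd −0.31 to 0.15 and Ppp3ca −0.045 to 0.14; for P522R against 5xFAD, Prkcb −0.027 to 0.23, Prkcd −0.11 to 0.22 and Ppp3ca −0.17 to 0.0016; and for P522R against M28L, Prkcb −0.12 to 0.039, Prkcd −0.072 to 0.035, Nfatc1 −0.058 to 0.11 and Nfatc2 −0.14 to 0.0071.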

Other observations

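At a finer clustering, 55 T cell-like nuclei appeared, 5 to 15 in each library. They are pooled over the 6 libraries, so that only counting error is known (exact Poisson 95% intervals), and no comparison between groups was made. Their members' levels were led by Ppp3ca with 1074 CPM (923 to 1242), Itpr2 with 670 CPM (552 to 806) and Prkcb with 605 CPM (493 to 734). Nfatc1 had 332 CPM (251 to 431), Itpr1 314 CPM (235 to 411) and Dgkd 368 CPM (282 to 471), while Rasgrp3 had 77.1 CPM (41.1 to 132) and Prkcd 35.6 CPM (13.1 to 77.5). The T cell forms of the same steps were found beside them: Prkch had 1186 CPM (1028 to 1363), Prkcq, the protein kinase C of the T cell synapse, 789 CPM (661 to 935), and Rasgrp1, the RasGRP of T cells, 362 CPM (277 to 465). Plcg1, the phospholipase C of T cell receptor signalling, had 65.2 CPM (32.6 to 117) from 11 UMIs, and Plcg2 had 1 UMI, 5.93 CPM (0.15 to 33.0).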
